A study of Homo sapiens with 9 samples.

Results

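The comparison described here is partial loss of DDX41 against a control hairpin in MOLM13 cells, a human acute myeloid leukemia line with monocytic features. Its members are the 3 libraries labelled Sh-DDX41_2 and the 3 labelled sh-Control, 6 of the 9 libraries of the series, assigned to groups by their labels and each named by its replicate letter (A, B or D). All cells were transduced with a pLKO-GFP lentivirus that had been produced in 293T cells and were sorted on day 4 after transduction, so sh-Control cells carried the same vector backbone and went through the same sort. The remaining group, Sh-DDX41_1, carries another hairpin against DDX41 and is used here only to show where the effect of Sh-DDX41_2 differs. The model is 1 cell line with 1 control hairpin and 1 DDX41 hairpin, so an effect of DDX41 loss and an effect of this hairpin on other transcripts cannot be told apart within the comparison. The labels do not say whether libraries A, B and D of a group came from separate cultures, and p-values therefore measure the spread between these samples, which may be technical.

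DDX41 encodes a DEAD-box RNA helicase, an enzyme that remodels RNA with the energy of ATP. It has been linked to pre-mRNA splicing, to the processing of small nucleolar RNAs that guide ribosomal RNA modification, and to the sensing of nucleic acids upstream of interferon. Inherited loss-of-function alleles of DDX41 predispose to myeloid neoplasms, which is the reason for asking what an incomplete loss does to myeloid cells.

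The 6 libraries held 16454379 to 20510032 counts, and levels are given as CPM, counts scaled to a common library size with TMM factors. All 12 markers of the myeloid line were tested, and their summed level was 2610 to 2690 CPM in sh-Control and 3590 to 3650 CPM with Sh-DDX41_2. Of the markers of other cell types, 11 of 13 erythroid markers were at 0 in all 6 libraries. The erythroid markers summed to 12.8 to 13.5 CPM and 11.2 to 13.5 CPM, which came almost wholly from EPOR. Of 8 B cell markers 4 were at 0, MS4A1 and PAX5 among them, and the list summed to 0.474 to 1.15 CPM and 0.702 to 1.15 CPM. The T and NK cell markers, of which CD3G, CD2 and KLRD1 were at 0, summed to 20.8 to 24.0 CPM and 24.7 to 27.6 CPM, mostly from NKG7. The 9 epithelial markers summed to 14.8 to 19.5 CPM and 18.2 to 19.1 CPM with KRT19, CDH1 and CDH2 at 0, and 1 of them, KRT8, was called higher (1.94, 1.49 and 1.63 CPM and 4.00, 3.12 and 3.03 CPM, adjusted p 0.0027). The part of these markers in the results below was not tested. In bulk RNA, fewer cells of a state and less RNA per cell cannot be told apart. On principal components of the 500 most variable genes, the first component (57.2% of the variance) separated the groups. The second (12.7%) held sh-Control A at 11.1, against −6.49 and −4.84 for sh-Control B and D.

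With the control hairpin DDX41 itself stood at 117, 114 and 113 CPM, and with Sh-DDX41_2 at 38.9, 39.9 and 42.5 CPM, each in the order A, B and D that is used throughout. The groups did not overlap, and the loss was 64.8% of the control level (log2 fold change −1.51, SE 0.0771, adjusted p 7.0e-09 in edgeR's quasi-likelihood test, from which all adjusted p-values below are taken). Permuting the 6 CPM values exactly, two-sided, gave p = 0.1, the smallest that 3 against 3 libraries allow. With Sh-DDX41_1 the level was 12.2, 12.9 and 9.95 CPM, a further difference of −1.79 (SE 0.0896, adjusted p 2.2e-09) on the log2 scale, so Sh-DDX41_2 is the weaker of the hairpins at the level of the transcript.

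At this partial loss, 3174 of 12712 tested genes (25.0%) passed an adjusted p of 0.05. Of these 1469 (11.6% of those tested) were higher and 1705 (13.4%) lower. Most changes were small. The median size among called genes was 0.41 on the log2 scale, 538 of them changed by less than 1.2-fold, and 313 (2.46% of genes tested) changed at least 2-fold, of which 194 were higher and 119 lower. For 43.8% of the tested genes every library of 1 group lay beyond the other group. These shares are the background against which each gene group is read. The number called depended on single libraries, and fell to 2054 without Sh-DDX41_2 B and to 2129 without Sh-DDX41_2 D. With upper quartile scaling 55.8% of calls were higher, against 46.3% with TMM.

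**Figure D1:**
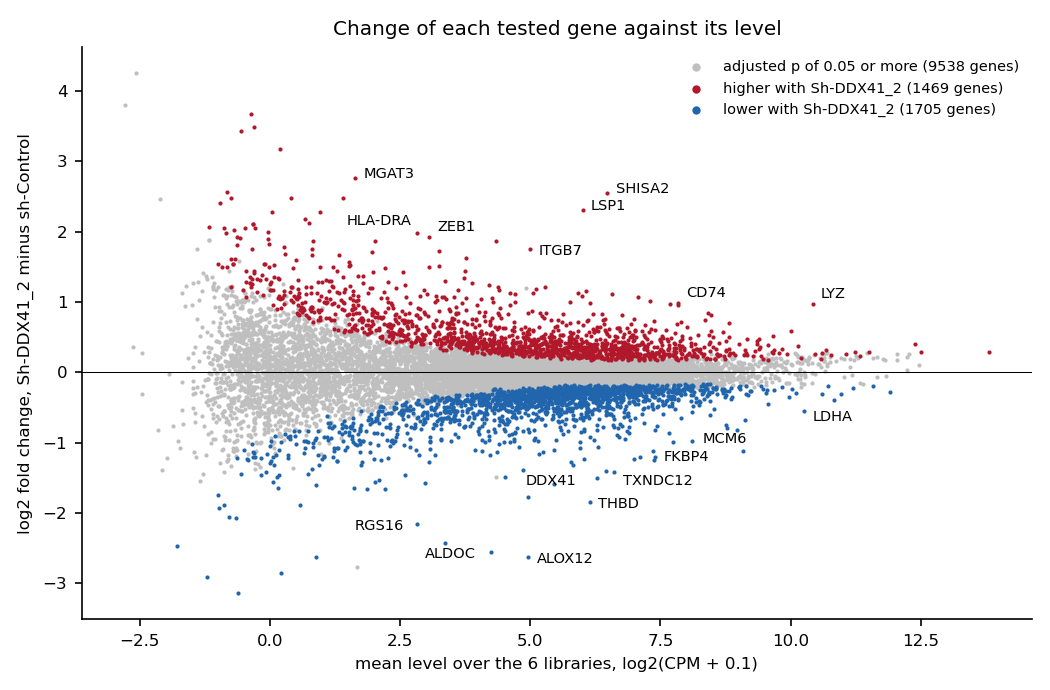
Mean level over the 6 libraries (log2 of CPM + 0.1, x axis) against the log2 fold change of Sh-DDX41_2 minus sh-Control (y axis) for 12712 genes, with the 1469 called higher in red, the 1705 called lower in blue and the others in grey. SHISA2 lies at 2.54 and ALOX12 at −2.62, whereas the more abundant LYZ and LDHA lie at 0.96 and −0.55.

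The 12 largest rises and falls were taken from called genes whose groups did not overlap, so their separation follows from that choice. Up to 4 called members per direction of each list below were taken by smallest adjusted p, which favors separated groups. The largest rises included the following genes. SHISA2, an endoplasmic reticulum protein that restrains Wnt and FGF receptor maturation, was at 26.5, 27.4 and 24.4 CPM in sh-Control and 159.9, 157 and 139 CPM with Sh-DDX41_2, and no library of either group came near the other (log2 fold change 2.54, SE 0.0934, adjusted p 4.4e-10). ITGB7, the beta-7 integrin subunit that pairs with alpha-4 or alpha-E in leukocyte homing, was at 14.5, 14.8 and 14.6 CPM in sh-Control and 50.1, 53.2 and 44.6 CPM with Sh-DDX41_2. The 3 treated libraries all lay above 3 times the control values (log2 fold change 1.75, SE 0.0938, adjusted p 1.1e-08). ZEB1, a zinc finger repressor known from epithelial to mesenchymal transition, was at 2.83, 3.56 and 3.9 CPM in sh-Control and 12.3, 13.5 and 13.3 CPM with Sh-DDX41_2 (log2 fold change 1.92, SE 0.138, adjusted p 2.4e-07).

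NOG, a secreted antagonist of bone morphogenetic proteins, rose from 4.72, 4.13 and 4.27 to 15.3, 13.1 and 15.1 CPM (log2 fold change 1.73, SE 0.123, adjusted p 2.4e-07). PLXNC1, a semaphorin receptor of myeloid cells, rose from 4.22, 4.93 and 5.48 to 14.5, 12.6 and 14.7 CPM (log2 fold change 1.51, SE 0.143, adjusted p 3.9e-06). The groups did not overlap for either gene. SLC9A7, a sodium and proton exchanger of the trans-Golgi network, rose by 1.62 (SE 0.132, adjusted p 9.3e-07), CCDC149 by 1.87 (SE 0.19, adjusted p 7.3e-06), and MGAT3, the glycosyltransferase that adds bisecting N-acetylglucosamine, by 2.75 (SE 0.242, adjusted p 1.9e-06). Smaller changes with very low spread included CES1, a carboxylesterase of monocytes and liver, at 154, 149 and 161 CPM in sh-Control and 304, 314 and 282 CPM with Sh-DDX41_2 (log2 fold change 0.96, SE 0.064, adjusted p 1.3e-07). LILRA2, an activating immunoglobulin-like receptor of myeloid cells, was at 40.3, 36.8 and 37.1 CPM in sh-Control and 77.4, 85.8 and 86.7 CPM with Sh-DDX41_2 (log2 fold change 1.13, SE 0.0756, adjusted p 1.3e-07). Control values of both genes were tight, and every treated library was near 2 times the control level.

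Among the largest falls, ALOX12, the arachidonate 12-lipoxygenase, was at 54.4, 53.4 and 52.3 CPM in sh-Control and 8.21, 8.78 and 9.09 CPM with Sh-DDX41_2 (log2 fold change −2.62, SE 0.117, adjusted p 4.2e-09). RGS16, a regulator that shortens G protein signaling, was at 12.8, 10.9 and 10.4 CPM in sh-Control and 2.86, 2.23 and 2.54 CPM with Sh-DDX41_2 (log2 fold change −2.16, SE 0.153, adjusted p 2.4e-07). OSM, the cytokine oncostatin M, was at 8.16, 6.14 and 6.37 CPM in sh-Control and 2.11, 2.23 and 2.18 CPM with Sh-DDX41_2 (log2 fold change −1.66, SE 0.168, adjusted p 7.1e-06). In each of these the gap between the groups was wider than the range within either group. ANKLE1, an endonuclease with ankyrin repeats expressed in blood cells, was at 65.3, 68.9 and 62.0 CPM in sh-Control and 22.3, 21 and 21.9 CPM with Sh-DDX41_2 (log2 fold change −1.59, SE 0.076, adjusted p 4.2e-09). LMLN fell by 1.57 (SE 0.134, adjusted p 1.4e-06), ARHGEF10 by 1.56 (SE 0.188, adjusted p 3.5e-05), and BIVM by 1.53 (SE 0.23, adjusted p 2.5e-04). BIVM was less even than the others, at 3.3, 1.59 and 1.58 CPM across the treated libraries against 5.94, 6.65 and 6.11 CPM in sh-Control.

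A further set of falls combined moderate size with the smallest p-values. TXNDC12, a thioredoxin-like protein of the endoplasmic reticulum, was at 140.0, 143 and 144 CPM in sh-Control and 56.5, 51.9 and 51.3 CPM with Sh-DDX41_2 (log2 fold change −1.42, SE 0.0658, adjusted p 4.2e-09). MRPL18, a protein of the large mitochondrial ribosomal subunit, was at 126, 124 and 131 CPM in sh-Control and 49.0, 50.2 and 44.5 CPM with Sh-DDX41_2 (log2 fold change −1.40, SE 0.0702, adjusted p 5.8e-09). RTN4, a reticulon that shapes endoplasmic reticulum tubules, was at 181, 175 and 181 CPM in sh-Control and 77.0, 73.8 and 77.3 CPM with Sh-DDX41_2 (log2 fold change −1.23, SE 0.0588, adjusted p 4.2e-09). In all 3 genes the range within each group was small beside the gap between the groups, which their choice by smallest adjusted p favors.

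**Figure D2:**
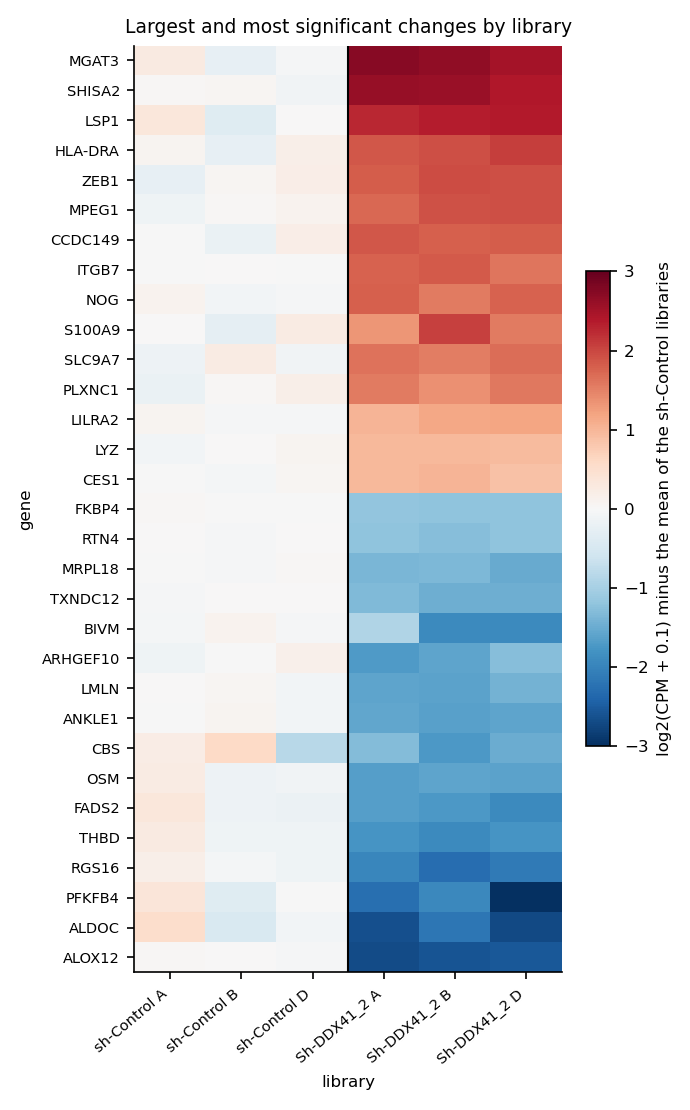
Largest and most significant rises and falls by library, as log2(CPM + 0.1) minus the mean of the sh-Control libraries (color scale; columns are libraries A, B and D of each group, rows genes). Genes were chosen by call, and the largest changes also by lack of overlap. The 1 direction that the Sh-DDX41_2 libraries share for every gene shown follows from that choice. The widest control spread is that of CBS.

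The gene group with the highest share of calls was sterol and fatty acid synthesis, the pathway driven by SREBP factors that builds cholesterol from acetyl-CoA and makes and desaturates long-chain fatty acids. Of 34 members tested, 28 were called lower and 0 higher, against 13.4% and 11.6% of all genes, and all 34 had a negative fold change. The median was −0.51, against −0.01 over all genes. HMGCS1, which makes HMG-CoA, was at 272, 199.8 and 233 CPM in sh-Control and 94.1, 106 and 97.5 CPM with Sh-DDX41_2 (log2 fold change −1.24, SE 0.0969, adjusted p 5.9e-07). SQLE, which makes squalene epoxide, was at 293, 235 and 259 CPM in sh-Control and 142, 149 and 144 CPM with Sh-DDX41_2 (log2 fold change −0.86, SE 0.0746, adjusted p 1.7e-06). Neither overlapped between groups, and the larger step was at HMGCS1.

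INSIG1, the sterol-responsive anchor that holds SREBP in the endoplasmic reticulum, was at 329.9, 243 and 284 CPM in sh-Control and 147, 139 and 144 CPM with Sh-DDX41_2 (log2 fold change −0.99, SE 0.0875, adjusted p 1.9e-06). On the fatty acid side, FASN, the fatty acid synthase, was at 737, 610.1 and 570.1 CPM in sh-Control and 359, 363 and 363 CPM with Sh-DDX41_2 (log2 fold change −0.82, SE 0.0926, adjusted p 2.0e-05). The delta-5 and delta-6 desaturases moved most. FADS1 was at 36.1, 33.1 and 31.5 CPM in sh-Control and 12.1, 13 and 10.8 CPM with Sh-DDX41_2 (log2 fold change −1.49, SE 0.115, adjusted p 5.8e-07). FADS2 was at 59.8, 42.1 and 41.5 CPM in sh-Control and 15, 14.3 and 12.4 CPM with Sh-DDX41_2 (log2 fold change −1.78, SE 0.16, adjusted p 2.6e-06). SCD, the stearoyl-CoA desaturase, fell by 1.11 (SE 0.118, adjusted p 1.1e-05), ELOVL6, an elongase, by 0.96 (SE 0.105, adjusted p 1.4e-05), and LSS, which cyclizes squalene epoxide to lanosterol, by 0.99 (SE 0.101, adjusted p 7.4e-06). The transcription factor genes moved less. SREBF1 fell by 0.50 (SE 0.0771, adjusted p 2.8e-04), while SREBF2 was at 361, 315 and 287 CPM in sh-Control and 281, 271 and 275 CPM with Sh-DDX41_2 and did not pass the test (log2 fold change −0.22, SE 0.0842, adjusted p 0.068). sh-Control A was the highest library for HMGCS1, FASN and FADS2, and without it 24 members were called lower and the median was −0.44. Of the LXR targets, genes induced by oxysterols, 2 of 9 rose and 0 fell, with a median of 0.01 that was −0.08 without sh-Control B or Sh-DDX41_2 D. The share called was 22.2%, near the 25% of all genes. ABCA7, a lipid transporter, was at 21.1, 19.1 and 22.4 CPM in sh-Control and 45.1, 49.2 and 48.4 CPM with Sh-DDX41_2 (log2 fold change 1.19, SE 0.0939, adjusted p 6.8e-07), and MYLIP, a ubiquitin ligase for lipoprotein receptors, rose by 0.48 (SE 0.101, adjusted p 0.0034). The letters TCACNCCAC, a form of the sterol response element, were searched on both strands of the 300-base promoters of 27 members and were found in 1 (3.7%), against 1.07% of 9005 promoters of tested genes. None of the 23 called lower held them in this window.

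Glycolysis and hypoxia genes, which HIF-1 raises when oxygen is low, were lower as well. Of 41 members tested 21 were called lower and 1 higher, and 30 did not overlap between the groups, with a median of −0.27. ALDOC, the aldolase C isoform, and LDHA, the lactate dehydrogenase A subunit, stand for the low and the high end of abundance. Their RefSeq promoters (GRCh38.p14) are shown from 250 bases before to the base before the start site because both hold the core of the hypoxia response element, ACGTG, which is in capitals on either strand.
ALDOC, chr17:28576896-28577145, minus strand: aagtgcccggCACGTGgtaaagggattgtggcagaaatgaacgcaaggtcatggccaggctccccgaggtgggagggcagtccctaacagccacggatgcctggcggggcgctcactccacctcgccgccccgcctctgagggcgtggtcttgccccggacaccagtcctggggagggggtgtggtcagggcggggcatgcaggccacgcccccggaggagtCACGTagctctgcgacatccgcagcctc
LDHA, chr11:18394313-18394562, plus strand: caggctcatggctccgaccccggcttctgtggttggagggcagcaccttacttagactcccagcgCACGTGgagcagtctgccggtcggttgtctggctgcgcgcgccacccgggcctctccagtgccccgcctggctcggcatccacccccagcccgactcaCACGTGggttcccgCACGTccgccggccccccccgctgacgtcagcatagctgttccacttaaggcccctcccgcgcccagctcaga
ALDOC held the core at 2 places and LDHA at 3. Over 35 promoters of the list 17 (48.6%) held it, against 27.1% of the 9005 promoters, and among those called lower 10 of 19 did. A match of these letters is a description and not a measured binding site. The lists were made from general knowledge of such genes. A share over a list above that of all promoters, here and in the other lists, is therefore not a result of these data.

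ALDOC was at 45.1, 22.6 and 29.3 CPM in sh-Control and 4.92, 6.84 and 4.67 CPM with Sh-DDX41_2 (log2 fold change −2.55, SE 0.235, adjusted p 3.0e-06), with a wide spread in sh-Control and a low level in all treated libraries. LDHA was at 1520, 1383 and 1465 CPM in sh-Control and 988, 1055 and 950.3 CPM with Sh-DDX41_2 (log2 fold change −0.55, SE 0.0654, adjusted p 3.5e-05). SLC2A3, the high-affinity glucose transporter, was at 47.4, 37.0 and 41.9 CPM in sh-Control and 17.0, 14.9 and 16.4 CPM with Sh-DDX41_2 (log2 fold change −1.39, SE 0.112, adjusted p 8.8e-07). In each of the 3 the groups did not overlap. PFKFB4, which sets the fructose 2,6-bisphosphate signal, was at 21.9, 13.1 and 16.6 CPM in sh-Control and 3.46, 4.36 and 1.64 CPM with Sh-DDX41_2 (log2 fold change −2.42, SE 0.267, adjusted p 1.6e-05). SLC16A3, the lactate exporter, was at 238, 195 and 209 CPM in sh-Control and 119, 128 and 115 CPM with Sh-DDX41_2 (log2 fold change −0.83, SE 0.0762, adjusted p 3.0e-06). VEGFA, the vascular growth factor, was at 60.5, 62.1 and 58.4 CPM in sh-Control and 35.8, 31.9 and 37.8 CPM with Sh-DDX41_2 (log2 fold change −0.78, SE 0.0764, adjusted p 5.4e-06). DDIT4, an inhibitor of mTORC1, fell by 0.84 (SE 0.0831, adjusted p 5.8e-06), BNIP3, a mitophagy receptor, by 0.97 (SE 0.114, adjusted p 3.0e-05), and HIF1A, the oxygen-regulated subunit itself, by 0.44 (SE 0.083, adjusted p 0.0015). SLC2A1, the basal glucose transporter, was not called, at 89.2, 75.9 and 72.2 CPM in sh-Control and 77.1, 73.2 and 72.4 CPM with Sh-DDX41_2 (log2 fold change −0.09, SE 0.0903, adjusted p 0.49). The number of members called higher was 0 without sh-Control A, sh-Control B or any 1 of the Sh-DDX41_2 libraries.

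ATF4 targets and amino acid genes, the arm of the integrated stress response that supplies amino acids, were lower in 22 and higher in 2 of 34 members tested (median −0.29). DDIT3, the stress factor CHOP, was at 24.0, 21 and 21.5 CPM in sh-Control and 13.4, 11.4 and 9.39 CPM with Sh-DDX41_2 (log2 fold change −0.96, SE 0.132, adjusted p 1.1e-04). CHAC1, which degrades glutathione, was at 41.4, 32.8 and 37.4 CPM in sh-Control and 21.2, 20.0 and 21.7 CPM with Sh-DDX41_2 (log2 fold change −0.83, SE 0.1, adjusted p 3.7e-05). SLC3A2, the shared heavy chain of amino acid exchangers, was at 189.6, 185 and 206 CPM in sh-Control and 134, 134 and 135 CPM with Sh-DDX41_2 (log2 fold change −0.53, SE 0.0607, adjusted p 2.4e-05). All 3 separated fully by group. In serine synthesis, PSAT1 was at 214, 225 and 217 CPM in sh-Control and 154, 169 and 151 CPM with Sh-DDX41_2 (log2 fold change −0.47, SE 0.0626, adjusted p 8.7e-05), and PHGDH, the first enzyme of that branch, fell by 0.39 (SE 0.063, adjusted p 4.2e-04). ASNS, asparagine synthetase, fell by 0.31 (SE 0.0718, adjusted p 0.0056). CBS, which joins homocysteine to serine, fell by 1.66 (SE 0.344, adjusted p 0.0029), with a control range from 2.74 to 7.57 CPM. ATF4 itself was at 648, 624 and 669.5 CPM in sh-Control and 565, 524 and 529.6 CPM with Sh-DDX41_2 (log2 fold change −0.26, SE 0.0688, adjusted p 0.012), a call that was lost without Sh-DDX41_2 B (adjusted p 0.062) or Sh-DDX41_2 D (0.055). The 2 members called higher were SLC1A4, a serine and alanine transporter, and JDP2, an AP-1 repressor, and neither was called without any 1 of sh-Control B, sh-Control D, Sh-DDX41_2 A and Sh-DDX41_2 B. The letters TGATGNAA of the C/EBP-ATF response element were in 6 of 28 promoters (21.4%), against 1.59% of all. They were in 3 of 19 called lower, ASNS, CHAC1 and SLC3A2. ATF3, SLC38A1 and SLC7A1, which held them as well, were not called.

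The aminoacyl-tRNA synthetases, which load tRNAs, were called lower in 9 and higher in 1 of 20 (median −0.13), and the higher count was 0 without sh-Control B or any 1 of the Sh-DDX41_2 libraries. The count of lower members was 5 without sh-Control B and 4 without Sh-DDX41_2 D. KARS, the lysyl-tRNA synthetase, was at 337, 321 and 331 CPM in sh-Control and 225, 226 and 221 CPM with Sh-DDX41_2 (log2 fold change −0.56, SE 0.0562, adjusted p 6.8e-06). FARSA fell by 0.37 (SE 0.0621, adjusted p 5.5e-04) and CARS by 0.35 (SE 0.0697, adjusted p 0.0021). Endoplasmic reticulum chaperones were lower in 8 and higher in 0 of 28 (median −0.09, and −0.06 without sh-Control D), a count that was 2 to 5 without any 1 of the 6 libraries compared, with the lowest without Sh-DDX41_2 D. The share called was 28.6%, near the 25% of all genes, and all of it was lower, against 13.4% of all genes. With upper quartile scaling 4 were lower and the median was −0.056. HSPA5, the chaperone BiP, was at 1110, 1111 and 1153 CPM in sh-Control and 869.8, 929 and 848 CPM with Sh-DDX41_2 (log2 fold change −0.35, SE 0.0655, adjusted p 0.0014), and MANF, a secreted stress factor, fell by 0.51 (SE 0.084, adjusted p 5.1e-04). HSP90B1 was at 1120, 1194 and 1263 CPM in sh-Control and 1116, 1151 and 1068 CPM with Sh-DDX41_2, overlapping between groups (log2 fold change −0.10, SE 0.0797, adjusted p 0.38).

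Cytosolic and mitochondrial heat shock genes were called lower in 17 and higher in 0 of 36, with a median of −0.18. FKBP4, a cochaperone of HSP90 for steroid receptors, was at 240.2, 233 and 232 CPM in sh-Control and 103, 102 and 102 CPM with Sh-DDX41_2 (log2 fold change −1.20, SE 0.0593, adjusted p 5.5e-09). HSPH1, the HSP110 exchange factor, was at 415, 450.2 and 439.9 CPM in sh-Control and 296, 314 and 296 CPM with Sh-DDX41_2 (log2 fold change −0.53, SE 0.0616, adjusted p 2.8e-05), and HSPA8, the constitutive HSC70, at 2106, 1977 and 2086 CPM in sh-Control and 1603, 1563 and 1547 CPM with Sh-DDX41_2 (log2 fold change −0.39, SE 0.0616, adjusted p 3.7e-04). Within these 3 genes the treated libraries were tight and lower throughout. BAG2 fell by 0.50 (SE 0.0783, adjusted p 3.6e-04). The count of lower members was 8 without Sh-DDX41_2 D, 9 without Sh-DDX41_2 A or sh-Control D, and 11 without Sh-DDX41_2 B or sh-Control B.

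**Figure D3:**
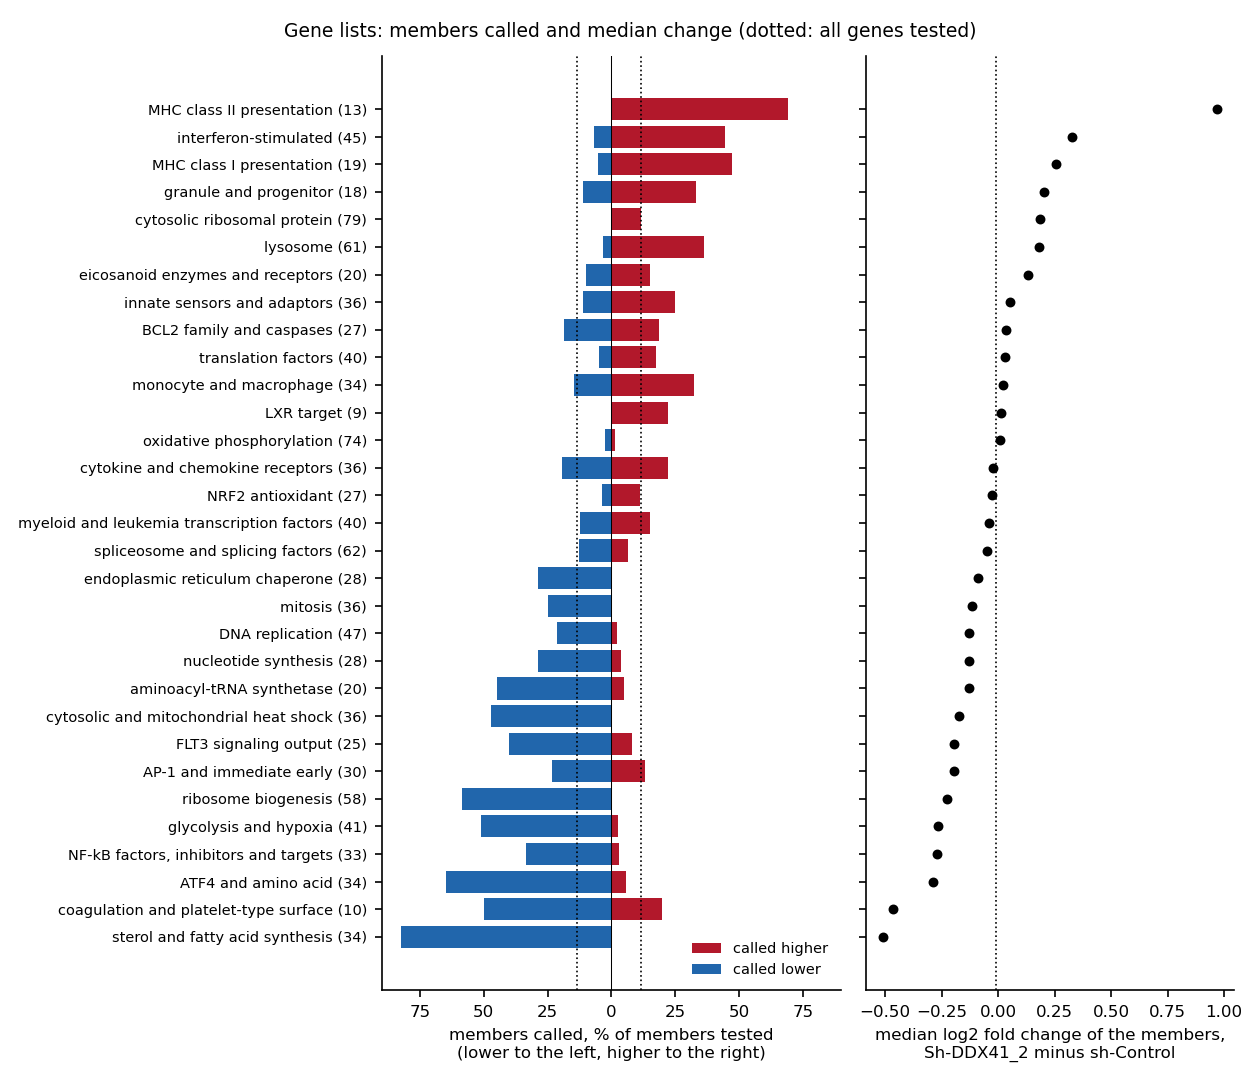
Percent of tested members called lower (blue, left) or higher (red, right) in each gene list, and the median log2 fold change of the list (right panel), with members tested in brackets and dotted lines at the values over all genes. Sterol and fatty acid synthesis stands at the low end (28 of 34 called lower) and MHC class II presentation at the high end (9 of 13 called higher).

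MYC, the transcription factor that drives ribosome production and growth, was at 403, 440.1 and 421 CPM in sh-Control and 258, 263 and 306 CPM with Sh-DDX41_2, with no overlap (log2 fold change −0.61, SE 0.0786, adjusted p 6.2e-05). Ribosome biogenesis factors, which process ribosomal RNA and assemble subunits in the nucleolus, were called lower in 34 and higher in 0 of 58 tested, with 45 not overlapping and a median of −0.23. NIP7, a factor of the 60S subunit, was at 100.1, 102 and 113 CPM in sh-Control and 71.8, 69.5 and 65.9 CPM with Sh-DDX41_2 (log2 fold change −0.61, SE 0.0747, adjusted p 4.3e-05). NOP56, a core protein of box C/D small nucleolar ribonucleoproteins, was at 505, 542 and 531 CPM in sh-Control and 412, 402 and 402 CPM with Sh-DDX41_2 (log2 fold change −0.38, SE 0.0585, adjusted p 3.2e-04). DDX21, a nucleolar DEAD-box helicase, was at 848, 903 and 861 CPM in sh-Control and 645, 646 and 624 CPM with Sh-DDX41_2 (log2 fold change −0.45, SE 0.0585, adjusted p 7.3e-05). Each fell by less than 2-fold, with groups that did not overlap. NOP16 fell by 0.47 (SE 0.0768, adjusted p 4.5e-04). FBL, the methyltransferase of the same box C/D particles, was at 470.5, 424 and 462 CPM in sh-Control and 437, 438 and 408 CPM with Sh-DDX41_2 (log2 fold change −0.08, SE 0.0798, adjusted p 0.49), and NCL, nucleolin, at 2820, 2818 and 2843 CPM in sh-Control and 2547, 2563 and 2450 CPM with Sh-DDX41_2 (log2 fold change −0.17, SE 0.0693, adjusted p 0.094), and neither passed the test.

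Cytosolic ribosomal proteins went the other way in sign. A positive fold change was measured for 78 of 79 (median 0.19), and 9 were called higher and 0 lower, which is 11.4% against 11.6% of all genes. That count rested on single libraries, and was 0 without Sh-DDX41_2 A, 1 without Sh-DDX41_2 B or sh-Control B, 4 without Sh-DDX41_2 D, and 49 without Sh-DDX41_1 D, a library that enters the fit but not the comparison. RPL15 was at 1333, 1227 and 1307 CPM in sh-Control and 1555, 1539 and 1530 CPM with Sh-DDX41_2 (log2 fold change 0.26, SE 0.0674, adjusted p 0.012, and 0.052 without Sh-DDX41_2 A). Translation factors were called higher in 7 and lower in 2 of 40 (median 0.03), and 2 were higher without Sh-DDX41_2 B, 3 without sh-Control B or Sh-DDX41_2 D, and 12 without Sh-DDX41_1 D. PABPC1, the cytoplasmic poly(A) binding protein, was at 4899, 4511 and 4433 CPM in sh-Control and 6028, 6074 and 6163 CPM with Sh-DDX41_2 (log2 fold change 0.40, SE 0.0688, adjusted p 7.3e-04). EIF4EBP1, the mTORC1-regulated brake on cap-dependent initiation, fell by 0.40 (SE 0.0728, adjusted p 0.0011), and EIF2B1, a subunit of the exchange factor for eIF2, by 0.35 (SE 0.0719, adjusted p 0.0027). Of the translation factors 22.5% were called, near the 25% of all genes. The share higher was 17.5% against 11.6% of all genes, and the share lower was 5% against 13.4%. The number called lower was 7 without Sh-DDX41_1 D.

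MHC class II presentation had the highest median of the lists. These genes load peptides from the endocytic route and answer to the coactivator CIITA. Of 13 tested, 9 were called higher and 0 lower, 11 did not overlap, and the median was 0.97. Under a stricter filter, which dropped any gene with a library below 10 counts, 6 were called higher and the median was 0.698. The size of the list's rise thus rests in part on members with few counts. CIITA was at 1.5, 1.49 and 1.42 CPM in sh-Control and 2.92, 2.78 and 2.97 CPM with Sh-DDX41_2 (log2 fold change 0.97, SE 0.208, adjusted p 0.0036). CD74, the invariant chain that chaperones class II molecules, is shown as the most abundant case, with its CCAAT box, the letters bound by NF-Y next to the X box of class II promoters, in capitals (RefSeq, GRCh38.p14, chr5:150412911-150413160, minus strand, the 250 bases before the start).
CD74: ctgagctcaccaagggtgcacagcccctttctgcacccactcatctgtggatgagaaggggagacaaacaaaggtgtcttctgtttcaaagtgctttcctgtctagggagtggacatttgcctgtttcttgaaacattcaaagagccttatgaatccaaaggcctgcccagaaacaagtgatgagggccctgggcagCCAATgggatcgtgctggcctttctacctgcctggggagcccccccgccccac
The letters CCAAT were in 7 of 10 promoters of the list (70.0%), against 37.1% of all, and in 6 of 7 of those called higher. CD74 was at 168, 156 and 136 CPM in sh-Control and 305, 302 and 298 CPM with Sh-DDX41_2 (log2 fold change 0.98, SE 0.0847, adjusted p 1.7e-06). HLA-DRA, the alpha chain of HLA-DR, was at 2.94, 2.35 and 3.16 CPM in sh-Control and 10.5, 11.0 and 12 CPM with Sh-DDX41_2 (log2 fold change 1.98, SE 0.169, adjusted p 1.4e-06). HLA-DMB, a subunit of the peptide exchanger HLA-DM, was at 0.999, 0.516 and 0.79 CPM in sh-Control and 4.00, 4.02 and 5.03 CPM with Sh-DDX41_2 (log2 fold change 2.48, SE 0.256, adjusted p 8.5e-06). In all of these the lowest treated library was above the highest control library. Of the genes named, those other than CD74 were at low levels, and reads of HLA genes may be shared with near-identical copies and alleles.

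MHC class I presentation was called higher in 9 and lower in 1 of 19 (median 0.25). TAPBPL, a peptide editor of class I molecules, was at 17.9, 16.4 and 15.2 CPM in sh-Control and 33.1, 31.3 and 31.4 CPM with Sh-DDX41_2 (log2 fold change 0.95, SE 0.0945, adjusted p 5.8e-06). HLA-E, a ligand of NK cell receptors, was at 372, 308 and 329.8 CPM in sh-Control and 492, 497 and 514 CPM with Sh-DDX41_2 (log2 fold change 0.57, SE 0.0783, adjusted p 1.0e-04). B2M, the shared light chain, was at 709.5, 693 and 792 CPM in sh-Control and 917, 918 and 908 CPM with Sh-DDX41_2 (log2 fold change 0.32, SE 0.0855, adjusted p 0.013). The separation was complete in each. TAP1, a subunit of the peptide transporter, rose by 0.43 (SE 0.071, adjusted p 4.8e-04), and PSMB9, an immunoproteasome subunit, by 0.76 (SE 0.145, adjusted p 0.0016). NLRC5, the class I coactivator, was at 39.5, 53.3 and 45.1 CPM in sh-Control and 48.9, 47.6 and 45.9 CPM with Sh-DDX41_2, with overlapping groups (log2 fold change 0.05, SE 0.129, adjusted p 0.83). The member called lower was CALR, a peptide loading chaperone, at 1850, 1785 and 1724 CPM in sh-Control and 1573, 1639 and 1487 CPM with Sh-DDX41_2 (log2 fold change −0.19, SE 0.0656, adjusted p 0.046), a call lost without any 1 of the 6 libraries compared (adjusted p 0.059 to 0.19) or without Sh-DDX41_1 A (0.074) or B (0.055), and with upper quartile scaling (0.11), other scaling factors (0.058) or other filters on low counts (0.052 and 0.064).

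Interferon-stimulated genes were called higher in 20 and lower in 3 of 45 tested, with a median of 0.33. IFI6, a mitochondrial protein induced by type I interferon, is shown for its promoter because it held the interferon-stimulated response element, searched as a pair of GAAA repeats with any 2 bases between them, at 3 places, in capitals (RefSeq, GRCh38.p14, chr1:27672193-27672442, minus strand, the 250 bases before the start).
IFI6: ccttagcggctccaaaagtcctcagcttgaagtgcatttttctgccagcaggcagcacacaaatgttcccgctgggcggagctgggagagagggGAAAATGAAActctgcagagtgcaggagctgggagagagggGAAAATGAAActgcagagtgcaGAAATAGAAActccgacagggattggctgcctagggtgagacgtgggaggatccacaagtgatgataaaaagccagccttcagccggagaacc
Over the list, 18 of 33 promoters (54.5%) held this element on either strand, against 2.98% of all, and 9 of 13 called higher did. As the list is of genes known to answer to interferon, its share is not a result of these data. IFI6 was at 1.17, 0.803 and 1.74 CPM in sh-Control and 2.81, 2.88 and 3.58 CPM with Sh-DDX41_2 (log2 fold change 1.30, SE 0.309, adjusted p 0.0067). TRIM22, an antiviral ubiquitin ligase, was at 29.6, 36.8 and 40.8 CPM in sh-Control and 58.2, 66.7 and 66.1 CPM with Sh-DDX41_2 (log2 fold change 0.83, SE 0.118, adjusted p 1.4e-04). LGALS3BP, a secreted glycoprotein, was at 0.389, 0.688 and 0.685 CPM in sh-Control and 1.62, 2.78 and 3.39 CPM with Sh-DDX41_2 (log2 fold change 2.12, SE 0.344, adjusted p 4.4e-04). IRF1, a factor downstream of interferon gamma, was at 33.0, 35.5 and 34.7 CPM in sh-Control and 45.8, 44.5 and 46.4 CPM with Sh-DDX41_2 (log2 fold change 0.40, SE 0.0756, adjusted p 0.0014). The treated libraries lay above the controls for each, but IFI6 and LGALS3BP are rare transcripts.

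Not all of the list moved alike. IFIT1, among the strongest responders to type I interferon, was near the limit of detection and overlapped, at 0.333, 0.459 and 0.948 CPM in sh-Control and 0.432, 0.297 and 1.15 CPM with Sh-DDX41_2 (log2 fold change 0.05, SE 0.564, adjusted p 0.96). XAF1, which promotes apoptosis, was at 46.1, 52.4 and 45.1 CPM in sh-Control and 34.3, 39.3 and 36.7 CPM with Sh-DDX41_2 (log2 fold change −0.38, SE 0.0809, adjusted p 0.0035), and PARP14, a mono-ADP-ribosyltransferase, fell by 0.31 (SE 0.0703, adjusted p 0.0054). USP18, a protease that restrains interferon signaling, was at 3.66, 2.35 and 4.11 CPM in sh-Control and 1.78, 2.08 and 1.76 CPM with Sh-DDX41_2 (log2 fold change −0.85, SE 0.254, adjusted p 0.024). The call on USP18 was lost without sh-Control A (adjusted p 0.069), sh-Control D (0.11), or any 1 of Sh-DDX41_2 A, B and D (0.053 to 0.081). The number of members called higher was 9 without Sh-DDX41_2 D, 13 without Sh-DDX41_2 B and 12 without sh-Control B.

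**Figure D4:**
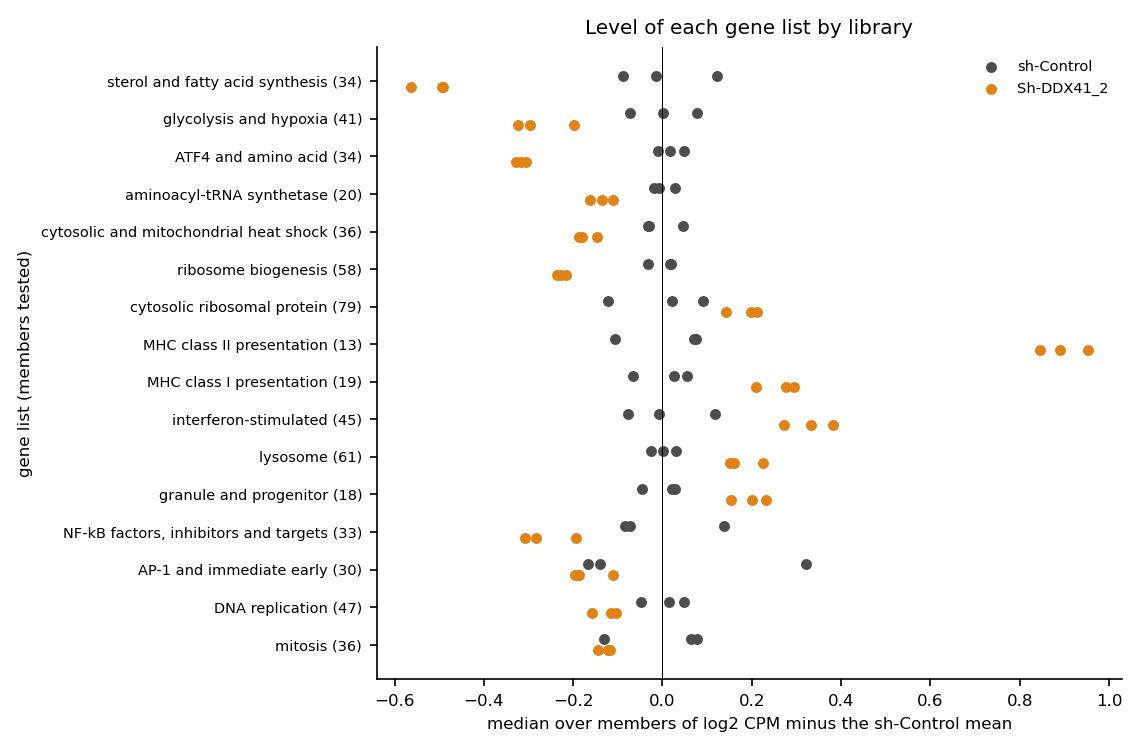
Level of 16 gene lists in each of the 6 libraries, as the median over members of log2 CPM minus the sh-Control mean (x axis), with sh-Control in grey and Sh-DDX41_2 in orange. MHC class II libraries lie at 0.85 to 0.95 against −0.11 to 0.07 in sh-Control, sterol and fatty acid libraries at −0.56 to −0.49 against −0.09 to 0.12, and for AP-1 genes sh-Control A stands at 0.32, apart from the other 5.

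Innate sensors and adaptors, the receptors for microbial products and nucleic acids, were mixed, with 9 of 36 called higher and 4 lower (median 0.05, and 0.02 without sh-Control D). TLR6, a partner of TLR2 for lipopeptides, was at 7.83, 9.4 and 8.85 CPM in sh-Control and 15.8, 16.6 and 14.1 CPM with Sh-DDX41_2 (log2 fold change 0.84, SE 0.119, adjusted p 1.4e-04), and TIRAP, an adaptor of TLR2 and TLR4, at 3.33, 3.61 and 2.95 CPM in sh-Control and 5.67, 6.84 and 7.09 CPM with Sh-DDX41_2 (log2 fold change 0.99, SE 0.18, adjusted p 0.0011). NLRP3, the inflammasome sensor, rose by 0.31 (SE 0.0723, adjusted p 0.0058). TLR2 was at 22.5, 23.7 and 23.2 CPM in sh-Control and 23.2, 23.8 and 23.5 CPM with Sh-DDX41_2, without separation (log2 fold change 0.02, SE 0.0771, adjusted p 0.87). TLR4 was at 27.1, 29.6 and 26.8 CPM in sh-Control and 32.1, 37.6 and 32.9 CPM with Sh-DDX41_2 and did not pass the test (log2 fold change 0.30, SE 0.119, adjusted p 0.078). STING (TMEM173), through which cytosolic DNA signals, was at 107, 97.0 and 98.6 CPM in sh-Control and 102, 104 and 97.5 CPM with Sh-DDX41_2, with overlapping groups (log2 fold change 0.00, SE 0.0675, adjusted p 0.97). The DNA sensor cGAS (MB21D1) was at 48.6, 52.7 and 51.2 CPM in sh-Control and 45.0, 42.2 and 44.5 CPM with Sh-DDX41_2 (log2 fold change −0.21, SE 0.0703, adjusted p 0.039), a call lost without sh-Control B or D (adjusted p 0.13 and 0.087), any 1 of the Sh-DDX41_2 libraries (0.074 to 0.15) or Sh-DDX41_1 A (0.056), and by DESeq2 (0.055). The count of lower members was 1 without any 1 of the Sh-DDX41_2 libraries, and 2 without any 1 of the sh-Control libraries or Sh-DDX41_1 A.

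NF-kB factors, inhibitors and targets were called lower in 11 and higher in 1 of 33 (median −0.27, and −0.17 without sh-Control A). SOD2, the mitochondrial superoxide dismutase, was at 106, 107 and 106 CPM in sh-Control and 74.9, 77.2 and 76.4 CPM with Sh-DDX41_2 (log2 fold change −0.48, SE 0.0599, adjusted p 4.7e-05). PLAUR, the urokinase receptor, was at 116, 97.5 and 97.3 CPM in sh-Control and 75.9, 71.4 and 72.7 CPM with Sh-DDX41_2 (log2 fold change −0.50, SE 0.0758, adjusted p 2.8e-04). CCL4, a chemokine of activated monocytes, was at 3.66, 2.01 and 2.26 CPM in sh-Control and 1.08, 0.793 and 0.727 CPM with Sh-DDX41_2 (log2 fold change −1.60, SE 0.307, adjusted p 0.0017). NFKBIE, an inhibitor that is itself a target, fell by 0.46 (SE 0.0972, adjusted p 0.0034). The groups were apart in all of them, and the member called higher was CYLD, a deubiquitinase that dampens the pathway, at 48.9, 47.2 and 46.9 CPM in sh-Control and 63.8, 69.5 and 64.7 CPM with Sh-DDX41_2 (log2 fold change 0.47, SE 0.0698, adjusted p 2.2e-04). The list level stood at 0.14 in sh-Control A, against −0.07 and −0.08 in sh-Control B and D and −0.31 to −0.19 with Sh-DDX41_2. Its count of lower members was 6 without sh-Control A, 5 without Sh-DDX41_2 B and 6 without Sh-DDX41_2 D. TNF was at 76.1, 66.6 and 69.0 CPM in sh-Control and 60.1, 47.5 and 49.1 CPM with Sh-DDX41_2 (log2 fold change −0.43, SE 0.137, adjusted p 0.031), a call lost without sh-Control A (adjusted p 0.10), sh-Control B (0.058), Sh-DDX41_2 B (0.13) or Sh-DDX41_2 D (0.11).

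For AP-1 and immediate early genes, which are induced within minutes of stimulation, sh-Control A decided the direction of the median. Of 30 members 7 were called lower and 4 higher, with a median of −0.20 that became 0.01 without sh-Control A, where 4 were lower and 6 higher. The size of the fall in JUN also depended on it. JUN was at 36.4, 19.2 and 14.2 CPM in sh-Control and 12, 10.4 and 12.8 CPM with Sh-DDX41_2 (log2 fold change −0.99, SE 0.243, adjusted p 0.0083), and its log2 fold change was −0.51 without sh-Control A, still lower. FOSL1, a late AP-1 member, fell by 0.83 (SE 0.132, adjusted p 3.6e-04), and NR4A1, an orphan receptor of the immediate early class, by 0.99 (SE 0.191, adjusted p 0.0018). FOS was at 39.3, 37.2 and 36.3 CPM in sh-Control and 48.4, 44.4 and 54.4 CPM with Sh-DDX41_2 (log2 fold change 0.38, SE 0.0811, adjusted p 0.0034), and FOSL2 at 112, 104 and 94.0 CPM in sh-Control and 155, 151 and 159 CPM with Sh-DDX41_2 (log2 fold change 0.58, SE 0.0779, adjusted p 8.7e-05). The last pair rose, with no overlap. Without Sh-DDX41_2 B 4 members were called lower.

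Genes of the monocyte and macrophage lineage were called higher in 11 and lower in 5 of 34 (median 0.02, and 0.08 without sh-Control A or D and 0.07 without Sh-DDX41_2 A), so the list did not move as a block. LYZ, lysozyme, was at 877, 931 and 986 CPM in sh-Control and 1833, 1827 and 1795 CPM with Sh-DDX41_2 (log2 fold change 0.96, SE 0.0658, adjusted p 1.6e-07), and accounts for most of the difference in the summed level of the myeloid markers. CD36, a scavenger receptor, was at 11.6, 13.6 and 12.2 CPM in sh-Control and 26.7, 25.6 and 25.5 CPM with Sh-DDX41_2 (log2 fold change 1.06, SE 0.0986, adjusted p 3.3e-06). ITGAM, the integrin CD11b, was at 13.7, 12 and 11.8 CPM in sh-Control and 17.8, 18 and 17.9 CPM with Sh-DDX41_2 (log2 fold change 0.52, SE 0.1, adjusted p 0.0017). These 3 rose with no overlap. LSP1, an actin-binding protein of leukocytes, rose by 2.31 (SE 0.178, adjusted p 5.8e-07), MPEG1, the macrophage perforin-2, by 1.87 (SE 0.101, adjusted p 1.1e-08), and S100A9, a subunit of calprotectin, by 1.71 (SE 0.257, adjusted p 2.4e-04). LGALS3, galectin-3, was at 11.7, 10.5 and 10.8 CPM in sh-Control and 6.43, 5.5 and 7.21 CPM with Sh-DDX41_2 (log2 fold change −0.79, SE 0.129, adjusted p 4.5e-04), MNDA, a nuclear protein of myeloid cells, at 47.3, 47.9 and 46.0 CPM in sh-Control and 33.2, 29.4 and 31.6 CPM with Sh-DDX41_2 (log2 fold change −0.58, SE 0.0841, adjusted p 1.6e-04), and CD1D, a lipid antigen presenter, at 18, 19.0 and 21.4 CPM in sh-Control and 14.4, 14.2 and 13.5 CPM with Sh-DDX41_2 (log2 fold change −0.47, SE 0.107, adjusted p 0.005). CSF1R, the M-CSF receptor, was at 23.5, 21.6 and 21.1 CPM in sh-Control and 17.2, 20.2 and 18.1 CPM with Sh-DDX41_2 and did not pass the test (log2 fold change −0.25, SE 0.115, adjusted p 0.12). Lower members numbered 3 without any 1 of sh-Control A, sh-Control D, Sh-DDX41_2 A, Sh-DDX41_2 D and Sh-DDX41_1 B.

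Granule and progenitor genes were higher in 6 and lower in 2 of 18 (median 0.21), and 10 were higher without Sh-DDX41_1 D. Dropping any gene with a library below 10 counts left 4 higher and a median of 0.121. The lower count was 1 without sh-Control A, Sh-DDX41_1 A or any 1 of the Sh-DDX41_2 libraries, and 3 without sh-Control D. BPI, a bactericidal protein of azurophil granules, was at 45.7, 36.3 and 41.8 CPM in sh-Control and 88.6, 95.7 and 92.2 CPM with Sh-DDX41_2 (log2 fold change 1.16, SE 0.0831, adjusted p 2.4e-07). MPO, myeloperoxidase, was at 118, 114 and 105 CPM in sh-Control and 169, 164 and 174 CPM with Sh-DDX41_2 (log2 fold change 0.59, SE 0.0688, adjusted p 2.8e-05), and CTSG, cathepsin G, at 328, 298 and 332 CPM in sh-Control and 411, 416 and 404 CPM with Sh-DDX41_2 (log2 fold change 0.36, SE 0.0673, adjusted p 0.0014). In these the treated libraries were above all controls. The related serine protease ELANE was at 1136, 895 and 1027 CPM in sh-Control and 877, 919.8 and 958 CPM with Sh-DDX41_2 and overlapped (log2 fold change −0.15, SE 0.0808, adjusted p 0.19). MS4A3, a cell cycle regulator of granulocyte progenitors, was at 93.6, 97.8 and 103 CPM in sh-Control and 78.8, 83.7 and 72.5 CPM with Sh-DDX41_2 (log2 fold change −0.32, SE 0.0744, adjusted p 0.0054). SPINK2, a protease inhibitor of progenitors, was at 0.0555, 0.172 and 0.0527 CPM in sh-Control and 0.81, 1.44 and 1.51 CPM with Sh-DDX41_2 (log2 fold change 3.67, SE 0.508, adjusted p 1.2e-04), from at most 3 counts in a control library.

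Transcription factors of myeloid identity and leukemia were near the background share of calls, with 6 called higher and 5 lower of 40 (median −0.04, and −0.10 without sh-Control D and −0.07 without Sh-DDX41_2 D). SPI1 (PU.1) was at 269, 247 and 238 CPM in sh-Control and 241, 236 and 243 CPM with Sh-DDX41_2 (log2 fold change −0.07, SE 0.064, adjusted p 0.49). CEBPA was at 493, 518 and 619.7 CPM in sh-Control and 473, 503 and 505 CPM with Sh-DDX41_2 (log2 fold change −0.14, SE 0.0865, adjusted p 0.26). HOXA9, which the MLL fusion of this line keeps on, was at 38.4, 34.6 and 35.6 CPM in sh-Control and 38.5, 35.1 and 40.0 CPM with Sh-DDX41_2 (log2 fold change 0.06, SE 0.078, adjusted p 0.6). For none of these master regulators did the groups separate. GATA2, a stem and progenitor factor, was at 61.2, 44.3 and 49.9 CPM in sh-Control and 24.2, 22.9 and 23.5 CPM with Sh-DDX41_2 (log2 fold change −1.14, SE 0.103, adjusted p 2.7e-06), and ID1, a dominant negative helix-loop-helix protein, at 6.38, 5.79 and 7.69 CPM in sh-Control and 2.86, 2.93 and 2.73 CPM with Sh-DDX41_2 (log2 fold change −1.22, SE 0.193, adjusted p 3.6e-04). BCL6, a repressor, was at 8.77, 7.45 and 8.06 CPM in sh-Control and 15.6, 16.2 and 14.5 CPM with Sh-DDX41_2 (log2 fold change 0.93, SE 0.109, adjusted p 2.8e-05). IRF8, which directs monocyte fate, was at 392, 403 and 439 CPM in sh-Control and 470.0, 513 and 509 CPM with Sh-DDX41_2 (log2 fold change 0.27, SE 0.0653, adjusted p 0.0067). MEIS1 was at 80.4, 87.0 and 81.7 CPM in sh-Control and 76.9, 75.9 and 76.8 CPM with Sh-DDX41_2 (log2 fold change −0.12, SE 0.0649, adjusted p 0.2) and did not pass the test. The number called higher was 3 without sh-Control D or any 1 of the Sh-DDX41_2 libraries, and the number called lower was 8 without sh-Control B and 9 without Sh-DDX41_1 D.

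FLT3, the receptor kinase that carries an activating internal tandem duplication in this line, was at 399, 381 and 404 CPM in sh-Control and 362, 396 and 392 CPM with Sh-DDX41_2 (log2 fold change −0.04, SE 0.067, adjusted p 0.7). Genes of FLT3 signaling output were lower in 10 and higher in 2 of 25 (median −0.19, and −0.31 without sh-Control B). CCND2, cyclin D2, was at 24.6, 33.2 and 35.7 CPM in sh-Control and 15.4, 19.3 and 15.7 CPM with Sh-DDX41_2 (log2 fold change −0.89, SE 0.129, adjusted p 1.8e-04). CISH, a STAT5 target that feeds back on cytokine receptors, was at 43.4, 40.2 and 39.2 CPM in sh-Control and 31.8, 31.5 and 30.5 CPM with Sh-DDX41_2 (log2 fold change −0.39, SE 0.0798, adjusted p 0.0027), and PIM1, a STAT5-induced kinase, at 72.6, 59.7 and 60.2 CPM in sh-Control and 49.2, 51.8 and 46.3 CPM with Sh-DDX41_2 (log2 fold change −0.39, SE 0.0884, adjusted p 0.0055). These fell with no overlap. DUSP6, the ERK phosphatase that reports RAS and MAPK output, was at 12.1, 11.5 and 9.95 CPM in sh-Control and 10.6, 13.4 and 12.7 CPM with Sh-DDX41_2 (log2 fold change 0.13, SE 0.12, adjusted p 0.46). Lower members numbered 6 without Sh-DDX41_2 A, and the 2 called higher, ETV5 and PIM2, both lost the call without sh-Control B or Sh-DDX41_2 D. Cytokine and chemokine receptors were higher in 8 and lower in 7 of 36 (median −0.03, and −0.06 without sh-Control B and −0.075 without Sh-DDX41_2 D), and 4 were lower without sh-Control B, Sh-DDX41_2 A or Sh-DDX41_2 D. CXCR4, the marrow homing receptor, was at 70.3, 82.1 and 93.0 CPM in sh-Control and 128, 131 and 121 CPM with Sh-DDX41_2 (log2 fold change 0.63, SE 0.0847, adjusted p 9.0e-05), IL17RA at 176, 170.5 and 164 CPM in sh-Control and 221, 237 and 238 CPM with Sh-DDX41_2 (log2 fold change 0.45, SE 0.0598, adjusted p 8.5e-05) and IFNAR2, a subunit of the type I interferon receptor, at 53.9, 52.5 and 55.5 CPM in sh-Control and 70.3, 75.4 and 73.0 CPM with Sh-DDX41_2 (log2 fold change 0.43, SE 0.0671, adjusted p 3.0e-04). IL7R was at 10.2, 10.6 and 12.1 CPM in sh-Control and 5.29, 5.5 and 5.94 CPM with Sh-DDX41_2 (log2 fold change −0.98, SE 0.124, adjusted p 5.7e-05). IFNGR1 was at 83.8, 85.9 and 87.5 CPM in sh-Control and 79.9, 75.3 and 87.8 CPM with Sh-DDX41_2 (log2 fold change −0.08, SE 0.0734, adjusted p 0.44), without separation.

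Lysosome genes were called higher in 22 and lower in 2 of 61 (median 0.18), and 38 did not overlap. PSAP, the precursor of the saposins that present lipids to hydrolases, was at 203, 185 and 212 CPM in sh-Control and 304, 322 and 314 CPM with Sh-DDX41_2 (log2 fold change 0.65, SE 0.0761, adjusted p 3.0e-05). HEXA, a hexosaminidase subunit, was at 75.8, 65.1 and 75.7 CPM in sh-Control and 99.2, 119.7 and 114 CPM with Sh-DDX41_2 (log2 fold change 0.62, SE 0.0822, adjusted p 8.2e-05), and CTSD, cathepsin D, at 210.0, 173 and 186 CPM in sh-Control and 240.0, 258 and 256 CPM with Sh-DDX41_2 (log2 fold change 0.40, SE 0.0723, adjusted p 9.7e-04). ATP6V1H, a subunit of the proton pump, was at 66.2, 67.9 and 76.9 CPM in sh-Control and 100.2, 108 and 107 CPM with Sh-DDX41_2 (log2 fold change 0.58, SE 0.0698, adjusted p 3.7e-05). All 4 rose in every treated library. CTSO, a cysteine cathepsin, rose by 1.42 (SE 0.19, adjusted p 8.6e-05), and LAMP1, a membrane glycoprotein, by 0.27 (SE 0.0586, adjusted p 0.0038). TFEB, the factor that drives many of these genes, was at 18.1, 17.4 and 17.6 CPM in sh-Control and 15.1, 17.3 and 17.1 CPM with Sh-DDX41_2 (log2 fold change −0.10, SE 0.0922, adjusted p 0.46). The CLEAR element TCACGTGA, which contains the hypoxia core letters, was in 7 of 41 promoters (17.1%), against 2.07% of all, and in 3 of 11 called higher, LAMP1 among them. The number of members called lower was 0 without sh-Control B or Sh-DDX41_2 A.

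DNA replication genes were lower in 10 and higher in 1 of 47 (median −0.13), and 16 were lower without Sh-DDX41_1 D. The share called was 23.4%, near the 25% of all genes, and the share lower was 21.3% against 13.4%. MCM6, a subunit of the replicative helicase, stood out at 357, 364 and 377 CPM in sh-Control and 190.4, 193 and 173 CPM with Sh-DDX41_2 (log2 fold change −0.98, SE 0.0624, adjusted p 7.6e-08). CCNE1, cyclin E1, was at 29.1, 33.9 and 32.2 CPM in sh-Control and 21.7, 19.6 and 20.2 CPM with Sh-DDX41_2 (log2 fold change −0.63, SE 0.0861, adjusted p 1.0e-04), and POLE2, a subunit of polymerase epsilon, fell by 0.47 (SE 0.0879, adjusted p 0.0014). PCNA, the sliding clamp, was at 529, 563 and 630.1 CPM in sh-Control and 572, 596 and 564 CPM with Sh-DDX41_2, with overlapping groups (log2 fold change 0.01, SE 0.0706, adjusted p 0.94). Mitosis genes were lower in 9 and higher in 0 of 36 (median −0.12, and −0.20 without sh-Control A). Their share called was 25%, the background over all genes, and all of it was lower, against 13.4% of all genes. ANLN, the cytokinesis scaffold anillin, was at 90.0, 104 and 102 CPM in sh-Control and 47.7, 52.2 and 52.2 CPM with Sh-DDX41_2 (log2 fold change −0.96, SE 0.0784, adjusted p 9.6e-07), KIF23, a kinesin of the central spindle, at 67.6, 91.1 and 96.3 CPM in sh-Control and 52.2, 51.1 and 59.3 CPM with Sh-DDX41_2 (log2 fold change −0.65, SE 0.108, adjusted p 5.5e-04), and AURKA at 86.5, 101 and 117 CPM in sh-Control and 70.3, 69.9 and 76.1 CPM with Sh-DDX41_2 (log2 fold change −0.49, SE 0.091, adjusted p 0.0012). In sh-Control, library A was the lowest for all 3 of these mitotic genes. The count was 16 without it, 5 without Sh-DDX41_2 A or either other sh-Control library, and 4 without Sh-DDX41_2 D. MKI67 was at 485, 495 and 335 CPM in sh-Control and 498, 509 and 484 CPM with Sh-DDX41_2 and did not pass the test (log2 fold change 0.18, SE 0.157, adjusted p 0.43). Nucleotide synthesis was lower in 8 and higher in 1 of 28 (median −0.13). NME1, a nucleoside diphosphate kinase, fell by 0.54 (SE 0.0998, adjusted p 0.0013), and PRPS2, which makes phosphoribosyl pyrophosphate, by 0.47 (SE 0.0695, adjusted p 2.2e-04).

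In the BCL2 family and caspases, 5 of 27 were higher and 5 lower (median 0.03), with 3 lower without Sh-DDX41_2 B. BCL2 was at 117, 128 and 111 CPM in sh-Control and 165, 182 and 168 CPM with Sh-DDX41_2 (log2 fold change 0.54, SE 0.0729, adjusted p 1.0e-04). BAX, an executioner of mitochondrial apoptosis, was at 115, 113 and 124 CPM in sh-Control and 153, 157 and 151 CPM with Sh-DDX41_2 (log2 fold change 0.39, SE 0.0741, adjusted p 0.0015), and BCL2L11, the BH3 protein BIM, at 61.9, 59.0 and 54.8 CPM in sh-Control and 73.0, 81.5 and 79.7 CPM with Sh-DDX41_2 (log2 fold change 0.41, SE 0.0861, adjusted p 0.0028). Other proapoptotic members went both ways, and PMAIP1 and BAK1 were among those that fell. PMAIP1, the BH3 protein NOXA, was at 29.5, 32.8 and 33.2 CPM in sh-Control and 24.5, 21.1 and 21.6 CPM with Sh-DDX41_2 (log2 fold change −0.51, SE 0.0862, adjusted p 6.4e-04), and BAK1, which permeabilizes mitochondria as BAX does, at 72.2, 75.6 and 76.6 CPM in sh-Control and 64.0, 59.4 and 64.1 CPM with Sh-DDX41_2 (log2 fold change −0.26, SE 0.0667, adjusted p 0.011, and 0.064 without Sh-DDX41_2 B).

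Spliceosome and splicing factors were near the background, with 4 of 62 called higher and 8 lower (median −0.05, and −0.03 without Sh-DDX41_2 D). Of the SR proteins, which define exons, SRSF6 was at 281, 325 and 332 CPM in sh-Control and 255, 246 and 246 CPM with Sh-DDX41_2 (log2 fold change −0.33, SE 0.0699, adjusted p 0.0033), SRSF7 at 247, 269.5 and 279.8 CPM in sh-Control and 218, 210.2 and 207 CPM with Sh-DDX41_2 (log2 fold change −0.33, SE 0.0735, adjusted p 0.005), SRSF2 at 433, 457 and 477 CPM in sh-Control and 381, 369.9 and 384 CPM with Sh-DDX41_2 (log2 fold change −0.27, SE 0.0607, adjusted p 0.005), and the SR-related SRSF11 at 184, 238 and 209.9 CPM in sh-Control and 162, 151 and 161 CPM with Sh-DDX41_2 (log2 fold change −0.41, SE 0.08, adjusted p 0.0017). All were lower in every treated library. AQR, a helicase of the intron-binding complex, was at 73.3, 78.8 and 78.7 CPM in sh-Control and 95.3, 98.0 and 96.8 CPM with Sh-DDX41_2 (log2 fold change 0.33, SE 0.0681, adjusted p 0.0027), and SLU7, a factor of 3′ splice site choice, rose by 0.26 (SE 0.0624, adjusted p 0.0078). SF3B1 was at 530.1, 602 and 571 CPM in sh-Control and 615, 613 and 613 CPM with Sh-DDX41_2 (log2 fold change 0.11, SE 0.0634, adjusted p 0.22), and PRPF8 at 825, 779 and 592 CPM in sh-Control and 789.7, 850.4 and 786 CPM with Sh-DDX41_2 (log2 fold change 0.14, SE 0.151, adjusted p 0.52), and neither passed the test. U2AF1, which shares reads with a near-identical copy, was at 1.55, 13.8 and 0.895 CPM in sh-Control and 0.81, 0.744 and 0.788 CPM with Sh-DDX41_2 (log2 fold change −2.77, SE 1.07, adjusted p 0.071), a value set by sh-Control B. Higher members numbered 2 without any 1 of sh-Control B, sh-Control D and the Sh-DDX41_2 libraries, and lower members 5 without Sh-DDX41_2 B.

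Oxidative phosphorylation had the lowest share of calls, with 1 of 74 called higher and 2 lower, UQCR10 and CYCS (median 0.01, and 0.06 without sh-Control D), and 4 in each direction without Sh-DDX41_1 D and 0 lower without Sh-DDX41_2 D. COX7C, a subunit of cytochrome c oxidase, was the member called higher, at 150.2, 140.5 and 172 CPM in sh-Control and 238, 245 and 221 CPM with Sh-DDX41_2 (log2 fold change 0.60, SE 0.0843, adjusted p 1.2e-04). Antioxidant targets of NRF2 were higher in 3 and lower in 1 of 27 (median −0.03), with 6 higher without Sh-DDX41_1 D. Their share called was 14.8%, below the 25% of all genes. CAT, catalase, was at 371, 356 and 376 CPM in sh-Control and 506, 509 and 489 CPM with Sh-DDX41_2 (log2 fold change 0.45, SE 0.0599, adjusted p 8.9e-05), and FTH1, ferritin heavy chain, at 533, 418 and 484 CPM in sh-Control and 634, 684 and 669 CPM with Sh-DDX41_2 (log2 fold change 0.47, SE 0.0943, adjusted p 0.0023). In eicosanoid metabolism 3 of 20 were higher and 2 lower, ALOX12 and PTGES2 (median 0.13, and 0.02 without Sh-DDX41_2 B). The share called was 25%, the background over all genes. The lower count was 1 without any 1 of the 6 libraries compared or Sh-DDX41_1 A. Beside ALOX12, GGT5, which converts leukotriene C4, was at 7.05, 7.28 and 7.85 CPM in sh-Control and 17.9, 18.7 and 19.8 CPM with Sh-DDX41_2 (log2 fold change 1.34, SE 0.114, adjusted p 1.4e-06), and LTA4H, which makes leukotriene B4, rose by 0.31 (SE 0.0795, adjusted p 0.011). Of 10 coagulation and platelet-type surface genes tested, 5 were lower and 2 higher (median −0.47). THBD, thrombomodulin, fell by 1.84 (SE 0.102, adjusted p 1.4e-08), PLAU, urokinase, by 0.62 (SE 0.0699, adjusted p 2.0e-05), and F3, tissue factor, by 0.63 (SE 0.13, adjusted p 0.0027). F13A1, the coagulation factor XIII A chain, was at 11.2, 11.8 and 11.3 CPM in sh-Control and 18.3, 21.3 and 18.3 CPM with Sh-DDX41_2 (log2 fold change 0.76, SE 0.0958, adjusted p 5.3e-05).

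Finally, levels were set against Sh-DDX41_1, which left less DDX41. Between the hairpins 6204 of 12712 genes (48.8%) passed the test. Of the 3174 genes called with Sh-DDX41_2, 1913 were among them. Both comparisons use the same Sh-DDX41_2 libraries, which favors this overlap and a hairpin difference in genes chosen for their change with Sh-DDX41_2. Differences are given as Sh-DDX41_1 minus Sh-DDX41_2 on the log2 scale. SHISA2 was at 45.8, 39.0 and 35.6 CPM with Sh-DDX41_1, a difference of −1.92 (SE 0.0903, adjusted p 1.3e-09) from Sh-DDX41_2. LYZ was at 859, 838 and 915 CPM, a difference of −1.06 (SE 0.066, adjusted p 1.4e-08), and BPI at 25.8, 29.3 and 26.6 CPM, a difference of −1.76 (SE 0.0864, adjusted p 1.8e-09). All 3 were lower with the stronger hairpin, and BPI also lay below its sh-Control values. Against sh-Control, SHISA2 was higher by 0.62 with Sh-DDX41_1 (adjusted p 8.8e-05), whereas LYZ was not called (−0.10, adjusted p 0.23).

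Among the falls, KARS was at 401, 389 and 399.9 CPM with Sh-DDX41_1, a difference of 0.82 (SE 0.0563, adjusted p 3.3e-08). MYC was at 629, 612 and 542 CPM, a difference of 1.11 (SE 0.0791, adjusted p 4.8e-08), and NIP7 at 121, 125 and 139.7 CPM, a difference of 0.90 (SE 0.0747, adjusted p 2.4e-07). With the stronger hairpin these 3 genes lay above the sh-Control values as well. FKBP4 was at 207, 202 and 218 CPM, higher by 1.03 (SE 0.0593, adjusted p 7.7e-09), ANKLE1 at 70.6, 74.5 and 64.9 CPM, higher by 1.69 (SE 0.0761, adjusted p 9.0e-10), and TXNDC12 at 132, 122 and 132 CPM, higher by 1.28 (SE 0.0659, adjusted p 2.9e-09). These last 3 genes had all fallen with Sh-DDX41_2. Against sh-Control, Sh-DDX41_1 gave no call for ANKLE1 (0.10, adjusted p 0.26) or TXNDC12 (−0.14, adjusted p 0.074). FKBP4 was lower by 0.17 (adjusted p 0.025).

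Other genes went further in the same direction. LDHA was at 449.6, 468 and 439 CPM with Sh-DDX41_1, a difference of −1.14 (SE 0.0664, adjusted p 8.2e-09), and HMGCS1 at 46.2, 47.8 and 41.4 CPM, a difference of −1.13 (SE 0.101, adjusted p 4.5e-07). Further genes did not differ detectably between the hairpins. HLA-DRA was at 10.1, 8.86 and 13 CPM, a difference of −0.06 (SE 0.145, adjusted p 0.74), and MPEG1 at 34.1, 31.7 and 30.0 CPM, a difference of 0.01 (SE 0.0901, adjusted p 0.93). CXCR4 was at 122, 123 and 127 CPM, a difference of −0.03 (SE 0.0838, adjusted p 0.8). SQLE was at 147, 143 and 148 CPM, a difference of 0.01 (SE 0.0749, adjusted p 0.9), and FASN at 360.5, 386 and 312 CPM, a difference of −0.04 (SE 0.0925, adjusted p 0.77). For these genes the SE bounds how large a missed difference could be, and a p that misses the threshold does not show equal levels. The hairpin sequences were not compared here, so the amount of DDX41 and the identity of the hairpin cannot be told apart.

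**Figure D5:**
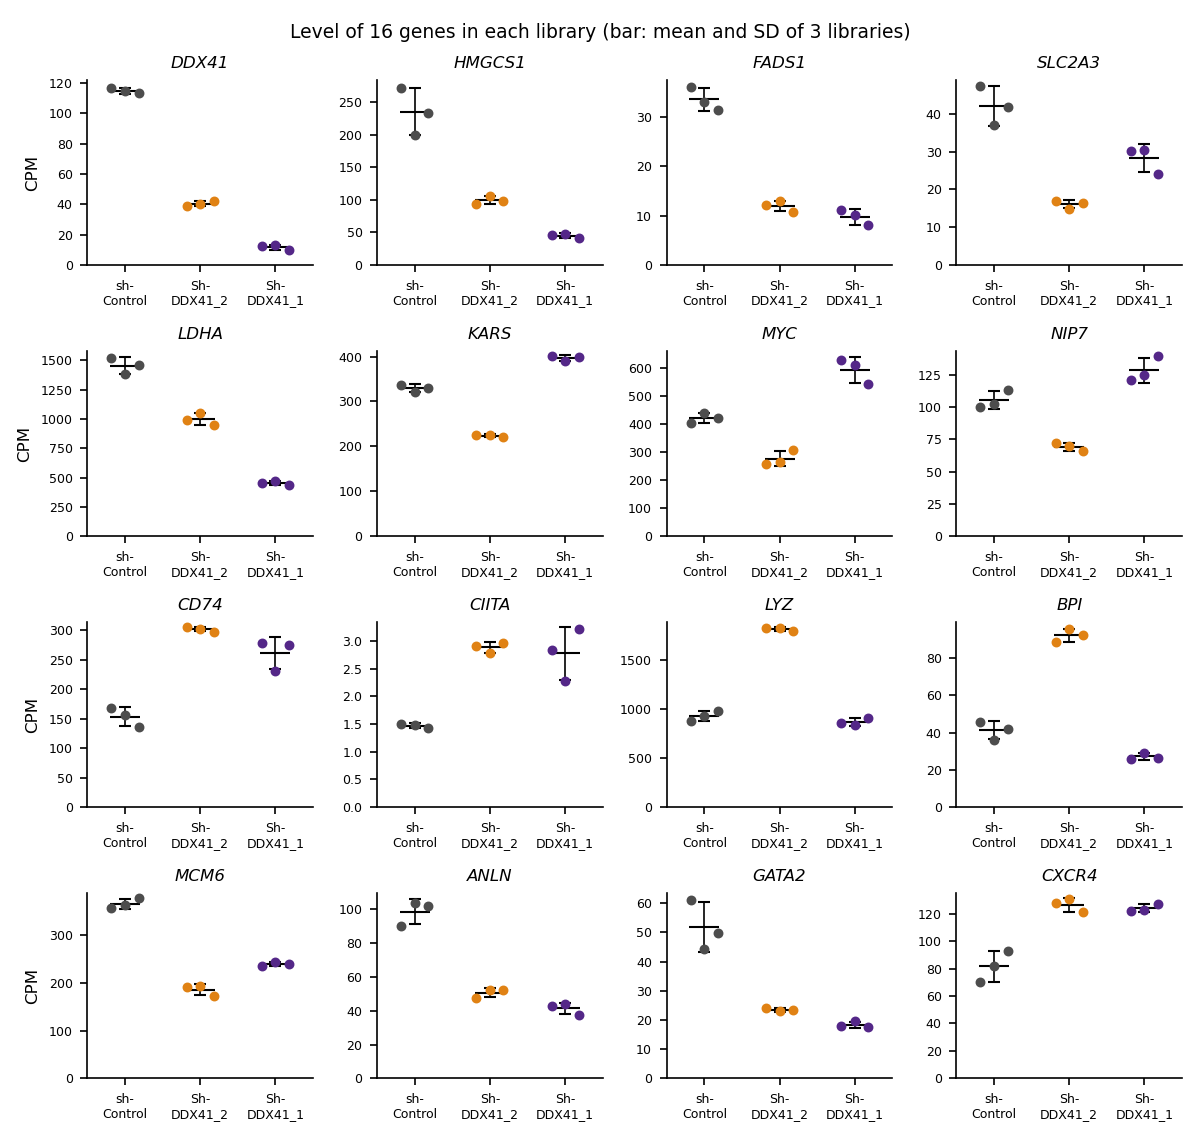
CPM of 16 genes in each library of sh-Control (grey), Sh-DDX41_2 (orange) and Sh-DDX41_1 (purple), with points for libraries A, B and D and bars for the mean and SD of 3 libraries. With Sh-DDX41_2 MYC, KARS and NIP7 lie below sh-Control and with Sh-DDX41_1 above it, whereas HMGCS1 and LDHA step down from sh-Control to Sh-DDX41_2 to Sh-DDX41_1.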

How the data were processed

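RNA of MOLM13 cells was sequenced by the authors, and the deposited table holds raw read counts per gene. The submitters' processing notes name FastQC 0.11.7, HISAT2 2.0.5 and featureCounts 1.5.2 with the builds mm10 and hg38, without roles. The annotation is not given in the sources used here. The labels name a stranded library kit and the study's methods an unstranded one, so overlapping and antisense genes are uncertain. Counts of 30017 genes in 9 libraries were fitted in 1 model of 3 groups, without covariates, with edgeR 4.0.16 (R 4.3.3, quasi-likelihood test, TMM factors), after filterByExpr with a minimum count of 10 had kept 12712 genes. Calls are at a Benjamini-Hochberg adjusted p under 0.05. The biological coefficient of variation was 0.0768, and totals of 16454379 to 20510032 counts set the precision of rare transcripts.

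The comparison, its members and the gene lists were chosen with earlier results of these data known. Named genes were DDX41, the 12 largest rises and falls without overlap at 5 CPM or more, the 6 of smallest p in each direction, and in each list up to 4 called members per direction and preset key members. SCD, ELOVL6, LSS, SREBF1, SLC1A4, JDP2, ETV5, PIM2, UQCR10, CYCS, PTGES2 and BAK1 were looked at after their values were seen where the rule did not name them. The results of 1 further list and of some genes are not reported here. Alternatives used other scaling factors, other filters, limma 3.58.1 (voom), DESeq2 1.42.0, only the 6 libraries, a replicate block, and each library left out. On simulated counts with 195 changed genes among 12544 tested, the fit recovered 88.7%, and 94% at 2-fold, and called 7 unchanged genes (3.89% of calls). In the data 25.0% of tested genes were called, a far larger share, at a median size of 0.41 on the log2 scale. Whether the rates from the simulated counts hold for such calls was not tested. Promoter sequences are RefSeq's, 250 bases before to 50 after a start, matched by symbol for 9005 tested genes.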

Additional observations from a re-analysis of the deposited data

How the results depend on the processing

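The count of 3174 genes called with Sh-DDX41_2 stayed between 3091 and 3570 under other scaling factors, other filters on low counts, DESeq2, limma's voom and the replicate block, and was 3979 when only the 6 libraries compared were fitted. It was 1670 at an adjusted p under 0.01 and 313 at a fold change of at least 2. Leaving out 1 library gave 2054 to 4248, the lowest without Sh-DDX41_2 B and the highest without Sh-DDX41_1 D, and fewer samples enter each of these fits. The share of calls that were higher was 46.3%, 55.8% with upper quartile factors, 41.4% with library size alone and 49.8% with no filter. The count between the hairpins was 5169 to 6503 in every alternative run for it. The loss of DDX41 was −1.47 to −1.54 on the log2 scale in all of them.

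The replicate block by letter gave 3570 calls, 1685 higher and 1885 lower, of which 3149 were also called without it, and 6503 between the hairpins. Between the groups compared the letters did not pair the samples, as deviations of same-letter libraries correlated at 0.015 (A), −0.057 (B) and −0.008 (D). Between sh-Control and Sh-DDX41_1 they correlated at 0.073, 0.158 and 0.243, each library best with its own letter, which is a hint from the data and not from the design. The value for A was under 0.1, and between Sh-DDX41_2 and Sh-DDX41_1 they were 0.023, −0.049 and −0.028.

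For the 194 genes named, the sign was reversed in 14 combinations of gene and alternative, all in genes not called. IFIT1 was −0.044 by voom and −0.68 to 0.61 without single libraries. NLRC5 ranged from −0.051 to 0.17 without single libraries, SLC2A1 from −0.16 to 0.003, PCNA from −0.048 to 0.079 and TMEM173 from −0.021 to 0.048. With library size alone PCNA was −0.011 and TMEM173 −0.015. The median of the AP-1 list ran from −0.27 to 0.013 without single libraries. A call was lost in 74 such combinations and gained in 20. Depth limits transcripts near 1 CPM, such as IFIT1, CIITA and LGALS3BP. The causes of these shifts were not tested.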
